A study of Mus musculus with 23 samples.

Results

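The 10 genes of the neuronal microtubule system followed here were the stathmins Stmn1, Stmn2, Stmn3 and Stmn4, the tubulins Tubb3, Tubb2a and Tuba1a, and the microtubule-associated protein genes Map2, Mapt and Map1b. They were chosen from the data as well as by function: they were picked because the fitted level of Stmn4 was lower in APPNLGF than in WT hippocampus. All 10 symbols were found among the 37173 genes of the count table, and all 10 passed the filter on low counts, as did 19423 genes in all. The comparison of APPNLGF with WT therefore describes these genes and tests nothing about them.

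Microtubules are hollow polymers of alpha- and beta-tubulin dimers that fill axons and dendrites and carry the motors of long-range transport. Stathmins bind free tubulin dimers and favour disassembly, whereas the microtubule-associated proteins (MAPs) bind along the polymer and stabilise it. Tau, the product of Mapt, forms the tangles of Alzheimer's disease.

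The study sequenced poly-A RNA of mouse hippocampus, taken at about 5 months, in 23 libraries: 6 WT, 6 P16<KO/KO> (P16KO), 5 APP<NLGF/NLGF> (APPNLGF) and 6 APP<NLGF/NLGF>P16<KO/KO> (APPNLGF_P16KO). P16 is the cell-cycle inhibitor encoded by Cdkn2a, and the NLGF allele is a knock-in of Alzheimer-linked mutations into the mouse App gene itself, so it has no transgene promoter. The labels used here name no treatment, strain or sex. Both hippocampi of an animal were collected, and the labels do not state that every library is a separate mouse, so p-values measure the spread between these libraries. Totals ran from 40.7e6 to 61.2e6 counts per library, and reads of Xist marked 3, 3, 2 and 3 libraries of the 4 groups in the order above. Cdkn2a was near the floor everywhere, with 17 reads in all WT libraries, 4 in P16KO, 25 in APPNLGF and 24 in APPNLGF_P16KO, so the P16 label of the last group could not be checked by read counts. All 12 neuron markers were detected in each group, as were markers of glia and of choroid plexus. In such bulk tissue, fewer cells of a type and less RNA per cell cannot be told apart.

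The 4 stathmins share a tubulin-binding core and differ at their start, which sets where the protein goes in the cell. The first 90 coding bases of each are shown because the set was picked through Stmn4 and the other stathmins are its relatives. In-frame cysteine codons are in capitals (coding sequences from GENCODE M21, GRCm38). Such cysteines carry the lipid anchor that ties neuronal stathmins to membranes. Stmn2, Stmn3 and Stmn4 each have 2 of these codons and Stmn1 has 0.
Stmn1: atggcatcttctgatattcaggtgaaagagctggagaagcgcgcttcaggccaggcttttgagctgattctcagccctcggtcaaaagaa
Stmn2: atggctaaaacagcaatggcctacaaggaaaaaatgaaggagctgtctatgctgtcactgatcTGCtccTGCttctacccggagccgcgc
Stmn3: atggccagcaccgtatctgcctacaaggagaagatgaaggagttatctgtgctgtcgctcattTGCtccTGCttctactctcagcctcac
Stmn4: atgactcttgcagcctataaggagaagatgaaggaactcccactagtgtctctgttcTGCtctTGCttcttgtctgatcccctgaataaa
The coding sequence of Stmn4 has 570 bases. With gaps left out, it matched Stmn1 at 318 of 435 aligned bases (73.1%), Stmn2 at 380 of 530 (71.7%) and Stmn3 at 373 of 527 (70.8%). No 50-base window of the Stmn2, Stmn3 or Stmn4 transcript occurred in another gene, so 50-base reads tell these 3 apart. Stmn4 lies on chromosome 14, chr14:66344296-66361680 on the plus strand of GRCm38, Stmn1 at chr4:134468320-134473843, Stmn2 at chr3:8509360-8561606 and Stmn3 at chr2:181306459-181314500.

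Tubulins differ most in the tail at the end of the protein, where enzymes add and remove side chains, and much less elsewhere. The last 60 coding bases are shown for the beta-tubulins Tubb2a and Tubb3 and for Tubb2b, a near copy, because near-identical copies limit what 50-base reads can assign. Capitals mark bases that differ from Tubb2a at the same place counted back from the end, with no gaps allowed. Tubb3 is longer, with 1353 coding bases against 1338 for Tubb2a, so its capitals are not aligned substitutions.
Tubb2a: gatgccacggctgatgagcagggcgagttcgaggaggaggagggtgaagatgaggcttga
Tubb2b: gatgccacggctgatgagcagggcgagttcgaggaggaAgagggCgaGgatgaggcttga
Tubb3: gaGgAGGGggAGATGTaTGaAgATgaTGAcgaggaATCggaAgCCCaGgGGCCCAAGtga
Tubb2a and Tubb2b differed at 47 of 1338 coding bases, and Tuba1a and Tuba1b at 23 of 1356. Of the 50-base windows of the Tuba1a transcript, 72.9% occurred in another gene, most often Tuba1c (46.9%). The share was 49.6% for Tubb2a, mostly with Tubb2b (45.6%), and 36.5% for Stmn1, mostly with Gm11223. The counts of these 3 genes are therefore uncertain, whereas 0 windows of the other 7 genes were shared. The exons of Tuba1a also overlap those of Gm49450 on the same strand over 473 bases, and those of Map2 overlap an antisense gene, Gm10558, over 124 bases.

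In WT hippocampus the levels per kilobase of transcript, in CPM (the count of a gene relative to the TMM-scaled total of its library), were highest for Stmn3 (356, range 322 to 387) and Tubb2a (214, 198 to 229). Map2 followed at 188, but its 6 WT libraries ranged from 127 to 271. Stmn2 stood at 170 (165 to 176), Stmn4 at 136 (123 to 158), Tubb3 at 135 (113 to 158) and Tuba1a at 115 (103 to 137). Lower still were Mapt (78.3, 69.4 to 88.1) and Map1b (59.3, 37.0 to 85.8), and Stmn1, the widely expressed stathmin, was lowest at 12.1 (10.2 to 14.2). Neighbours in this order overlapped between WT libraries except at 4 steps: Stmn3 to Tubb2a, Stmn2 to Stmn4, Tuba1a to Mapt, and Map1b to Stmn1.

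Stmn4 encodes a neuronal, membrane-bound stathmin. Its 6 WT libraries held 168 to 215 CPM with a median of 178. The 5 APPNLGF libraries held 151, 154, 142, 141 and 157 CPM, each below the lowest WT library. The fitted difference, which chose the genes, was -0.32 on the log2 scale (SE 0.066, 95% interval -0.45 to -0.18), a change of -19.7%. Among all genes 62 were called in this comparison (0.319%), and 1 of the 10 genes was among them, from which nothing is read. As a limit of that choice, Stmn4 was not called there without WT library 1 or 4 or without APPNLGF library 13, 15 or 16. The nearest other gene of the set was Stmn1 at -0.15, and the remaining 8 lay between -0.05 and 0.04. Other measures moved in the same libraries. The summed level of 12 immediate early genes was 459 to 528 CPM in WT and 344 to 435 in APPNLGF, with 2 of 12 called, Egr2 at -0.98 and Sik1 at -0.45. The sum of 8 microglial markers was 347 to 393 CPM in WT and 423 to 500.1 in APPNLGF, with C1qa (0.59) among those called, and the astrocyte marker Gfap was higher by 0.51. The part of these in the Stmn4 level was not tested.

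The same allele can be compared in libraries that did not choose the genes, APPNLGF_P16KO against P16KO. Stmn4 ranged from 174 to 198 CPM in P16KO (median 184) and from 157 to 197 in APPNLGF_P16KO (median 178). The groups overlapped, since libraries 18, 20 and 21 of APPNLGF_P16KO lay within the P16KO range and 19, 22 and 23 below it. The log2 difference was -0.07 (95% interval -0.20 to 0.06) and was not called by edgeR's quasi-likelihood test (adjusted p = 0.807). On CPM, the means of 176 ± 16.8 and 185 ± 8.69 (SD, n = 6 each) were not separated by an exact permutation test (two-sided p = 0.271, smallest possible 0.00216). The interval of APPNLGF minus WT, -0.45 to -0.18, comes from the libraries that chose Stmn4, so both intervals are not weighed against each other. Immediate early genes summed to 361 to 544 CPM in P16KO and 375 to 476 in APPNLGF_P16KO, with 0 of 12 called by edgeR, 1 at an unadjusted p under 0.05 and 0 by DESeq2, and microglial markers to 376 to 419 and 457 to 518 CPM. The difference between both comparisons, 0.24, holds the libraries that chose Stmn4 and is given without an interval or a test.

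The other 3 stathmins had positive fitted differences in the same libraries. Stmn2, which is linked to axon regrowth, held 308 to 381 CPM in P16KO (median 356) and 363 to 466.3 in APPNLGF_P16KO (median 403). Its log2 difference of 0.20 (95% interval 0.08 to 0.32) had an unadjusted p of 0.00177 in edgeR and an adjusted p of 0.240. Stmn3 was at 394 to 494 CPM in P16KO and 423 to 643 in APPNLGF_P16KO, a difference of 0.18 (adjusted p = 0.543, edgeR). Stmn1, at 8.79 to 16.1 and 12.1 to 15.5 CPM, differed by 0.24 (adjusted p = 0.638, edgeR). All 3 groups of values overlapped. Tubb3, the neuron-specific beta-tubulin, differed by 0.20, Tuba1a, the main alpha-tubulin of developing neurons, by 0.23 and Tubb2a by 0.10. Map2, a MAP of dendrites, differed by -0.11, Mapt by -0.08 and Map1b, a MAP of growing axons, by -0.13. With edgeR 0 of the 10 genes were called in this comparison and DESeq2 also called 0. Of all genes 48 were called by edgeR (0.247%) and 101 by DESeq2 (0.52%), so a count of 0 among 10 is near the background. At an unadjusted p under 0.05 in edgeR stood 4 of the 10 and 7.89% of all genes.

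Because the stathmins share libraries and scaling, the share of Stmn4 among all stathmin reads was also taken, a measure chosen after these libraries were seen and therefore given as a description with no test. Stmn4 made up 17.1% to 20.0% of stathmin reads in the 6 P16KO libraries and 14.3% to 17.0% in the 6 APPNLGF_P16KO libraries. The groups did not overlap, and the means were 18.4% ± 0.988 and 15.8% ± 1.12 (SD, n = 6 each). The share was likewise lower against Stmn2 alone (34.3% in P16KO and 30.1% in APPNLGF_P16KO) and against Stmn3 alone (28.8% and 25.4%). In the libraries that chose the genes the share was 19.4% ± 1.14 in WT and 16.0% ± 0.556 in APPNLGF. A share does not show which stathmin moved, and here the fitted difference of Stmn4 was -0.07 and those of the other 3 were 0.18 to 0.24 on the log2 scale. With trends on transcript length and GC content removed from each library, the differences were -0.12 for Stmn4, 0.17 for Stmn2 and 0.13 for Stmn3.

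**Figure D1:**
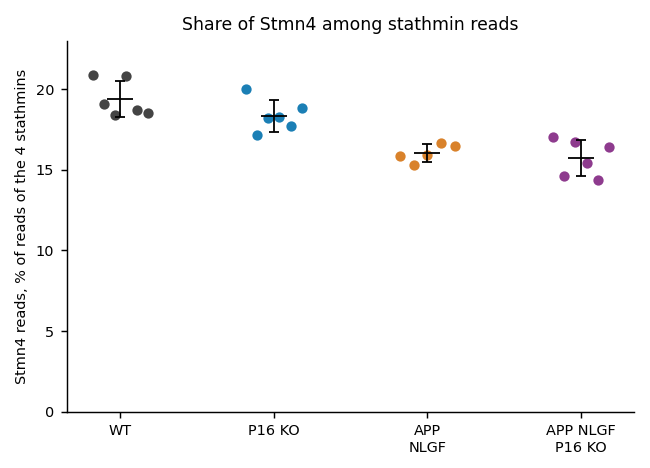
Stmn4 reads as a percentage of the reads of the 4 stathmins (vertical axis) in each library of the 4 genotypes (horizontal axis), with points for libraries and bars for mean and SD. The APPNLGF_P16KO libraries, 14.3% to 17.0%, lie below all P16KO libraries, 17.1% to 20.0%.

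Loss of P16 was compared as the average of P16KO minus WT and APPNLGF_P16KO minus APPNLGF, in which WT and APPNLGF enter with the same sign. Of the 10 genes 5 were called, against 2522 of 19423 genes in all (13.0%). Of these 2522 calls 1488 were higher and 1034 lower (59.0% higher), and with trends on transcript length and GC content removed the split was 1534 and 683 of 2217 (69.2% higher). Higher with P16 loss were 4 of 10, Stmn3, Tubb3, Tubb2a and Tuba1a, against 7.66% of all genes, and 1 of 10, Map2, was lower, against 5.32%. The median of the 10 was 0.11 and that of all genes 0.00, and the fitted values of all 7 stathmin and tubulin genes were positive and those of all 3 MAP genes negative.

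Stmn3, a membrane-bound neuronal stathmin, held 366 to 440 CPM in WT (median 406) and 394 to 494 in P16KO (median 462). With the App allele it held 433, 457, 404, 364 and 413 CPM in APPNLGF and 423 to 643 in APPNLGF_P16KO (median 514). Medians were higher without P16 in both App genotypes, with overlap in each. The averaged log2 difference was 0.25 (SE 0.055, adjusted p = 0.0106, edgeR), a change of 19.1%. Stmn2 and Stmn4 had differences of 0.11 (adjusted p = 0.0886) and 0.12 (adjusted p = 0.0843) and Stmn1 of 0.05 (adjusted p = 0.730), none of them called by edgeR.

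Tubb3 held 212 to 295.5 CPM in WT (median 253) and 227 to 302 in P16KO (median 286). It held 254, 266, 230, 242 and 241 CPM in APPNLGF and 283 to 411 in APPNLGF_P16KO (median 305). Ranges of WT and P16KO overlapped, and in APPNLGF_P16KO minus APPNLGF Tubb3 was not called (adjusted p = 0.112, edgeR). The averaged difference was 0.26 (SE 0.061, adjusted p = 0.0138, edgeR). Tuba1a rose by 0.24 (SE 0.062, adjusted p = 0.0198, edgeR), from 185 to 248 CPM in WT and 195 to 223 in APPNLGF to 181 to 253 in P16KO and 216 to 320 in APPNLGF_P16KO. Tubb2a, another neuronal beta-tubulin, rose by 0.17 (SE 0.045, adjusted p = 0.0211, edgeR), with 319 to 369 CPM in WT and 336 to 393 in P16KO. With the App allele its range was 315 to 372 CPM, and 336 to 443 where P16 was lost as well. Ranges overlapped for Tuba1a and Tubb2a in both App genotypes. Of their near copies, Tuba1b rose by 0.37 (adjusted p = 0.0115, edgeR), while Tubb2b was at 0.07 (adjusted p = 0.297, edgeR).

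Map2 held 792 to 1693 CPM in WT (median 1107) and 750 to 1152 in P16KO (median 878). It held 1090, 1011, 1146, 1291 and 1351 CPM in APPNLGF and 607 to 1141 in APPNLGF_P16KO (median 831). All groups overlapped, WT most widely, with library 1 lowest and library 5 highest. The averaged difference was -0.43 (SE 0.12, adjusted p = 0.0246, edgeR), a change of -26.0%. Map1b had a difference of -0.36 (adjusted p = 0.0534, edgeR), with 437 to 1013 CPM in WT and 512 to 618 in P16KO. Its range was 547.5 to 923 CPM in APPNLGF, and 424 to 795 where P16 was lost as well. Mapt, the tau gene, had -0.14 (adjusted p = 0.0636, edgeR), with medians of 409, 386.5, 416 and 350 CPM in WT, P16KO, APPNLGF and APPNLGF_P16KO. Neither was called, though DESeq2 called both, with adjusted p of 0.0162 for Map1b and 0.0430 for Mapt.

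**Figure D2:**
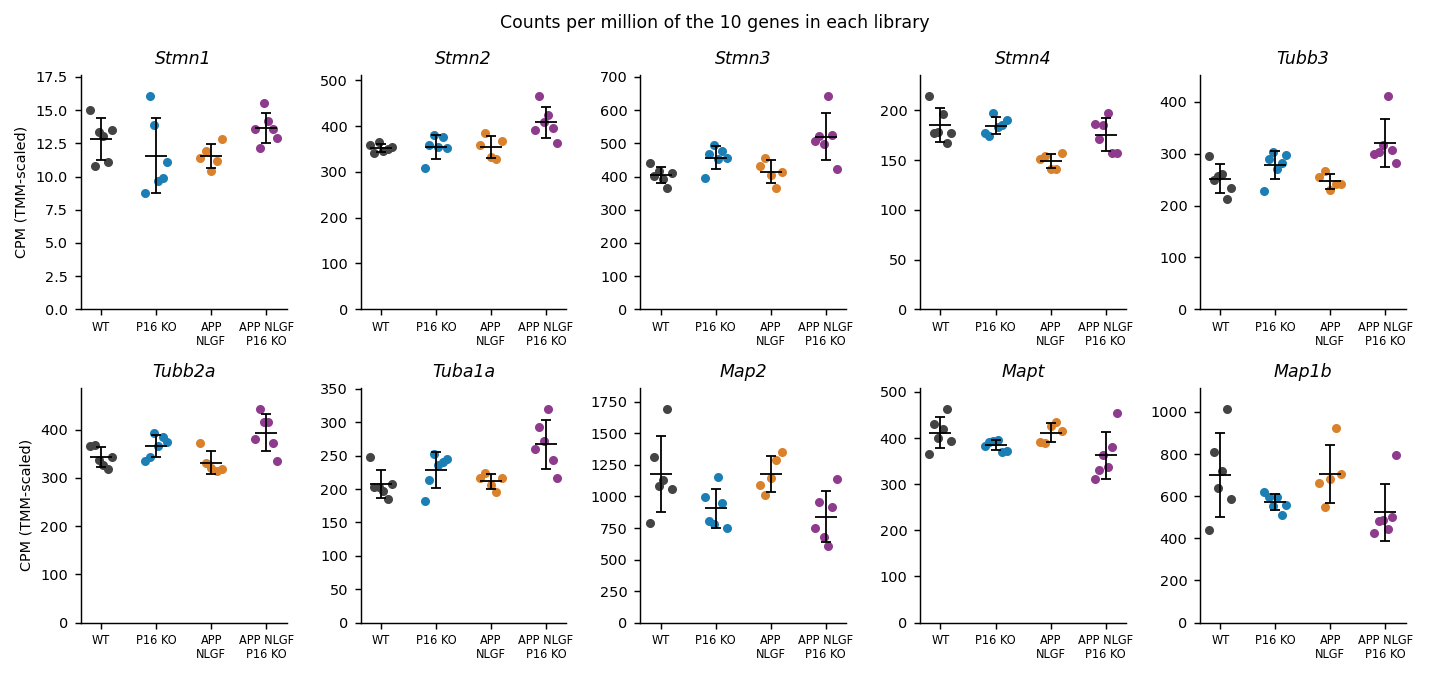
CPM, the count relative to the TMM-scaled library total (vertical axes, from 0) of the 10 genes in each library of the 4 genotypes (horizontal axes), with bars for mean and SD. The 5 APPNLGF libraries of Stmn4, 141 to 157 CPM, lie below all WT libraries, and Map2 and Map1b spread widely within WT.

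Single libraries weighed on these calls. Without APPNLGF library 16 only Stmn3 and Tubb3 remained called, 2 of 10, and the calls over all genes fell to 762. Without APPNLGF_P16KO library 23 the calls were 9 of 10 and 5117 genes, and without WT library 1 they were 8 of 10 and 3656 genes. With sex, read from Xist, as a term they were 8 of 10 and 3044 genes (15.7%). Without APPNLGF_P16KO library 21, the one past a distance limit over principal components, 5 of 10 stayed called, while the calls over all genes were 1410. Stmn3 and Tubb3 were called in all 32 alternatives fitted.

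In the separate comparisons, which share the WT or APPNLGF libraries with the one that chose the genes, 0 of the 9 genes besides Stmn4 were called by edgeR. For P16KO minus WT, 60 genes were called in all (0.309%), and Stmn3 (0.18) and Map2 (-0.38) had an unadjusted p under 0.05, as did 15.8% of all genes. DESeq2 called 0 of the 9 there. For APPNLGF_P16KO minus APPNLGF, 6 genes were called in all (0.0309%). At an unadjusted p under 0.05 stood all of the 9 except Stmn1, and 23.5% of all genes. The differences were 0.33 for Stmn3, 0.37 for Tubb3, 0.25 for Tubb2a, 0.34 for Tuba1a, 0.20 for Stmn2, -0.49 for Map2, -0.18 for Mapt and -0.43 for Map1b, with adjusted p from 0.112 to 0.156 by edgeR. DESeq2 called 4 of the 9 in this comparison, Stmn3, Tubb3, Tubb2a and Tuba1a, and 434 of all genes (2.23%). Without library 23, edgeR called 8 of the 9 and 4156 genes in all. The interaction of both alleles gave 0 calls over all genes (0.00%) with edgeR, 1021 genes at an unadjusted p under 0.05 and 1 call with DESeq2. Stmn1 (0.39) and Stmn2 (0.19) were among the 1021, each with an adjusted p of 0.897 by edgeR. For Stmn4 the values without a test were -0.01 in P16KO minus WT and 0.24 in APPNLGF_P16KO minus APPNLGF.

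**Figure D3:**
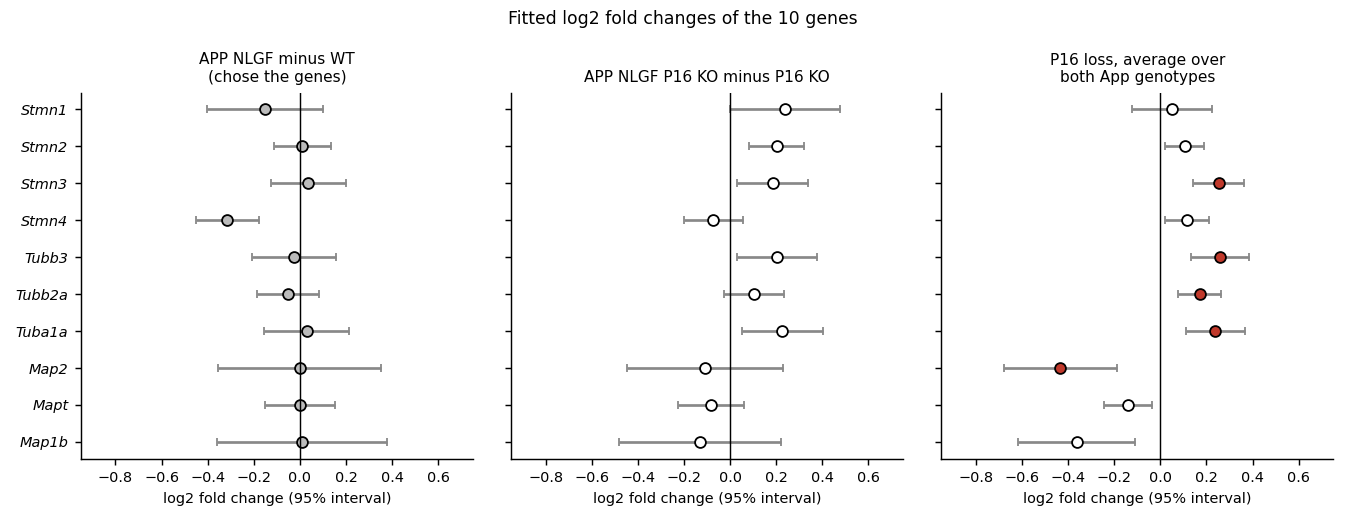
Log2 fold changes (horizontal axes) of the 10 genes (vertical axis) with 95% intervals in 3 comparisons. Red points were called at an adjusted p under 0.05, open points were not, and grey points belong to the comparison that chose the genes and carry no test. With P16 loss, stathmins and tubulins lie to the right and MAP genes to the left, from -0.43 to 0.26.

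The directions also went with transcript length. The longest coding transcripts of Stmn1, Stmn3, Stmn4 and the 3 tubulins span 1060 to 1868 bases and that of Stmn2 2073, while Mapt, Map2 and Map1b span 5253, 6258 and 11808. Over all tested genes with transcripts under 2000 bases, 14.3% were called higher and 1.40% lower with P16 loss. Over those above 5000 bases, 0.880% were called higher and 17.5% lower. Each library was given a long-minus-short value, the median log2 deviation of genes above 5000 bases minus that of genes under 2000 bases. Its median was 0.14 in WT, 0.06 in APPNLGF, -0.04 in P16KO and -0.17 in APPNLGF_P16KO, with overlap between groups. Within APPNLGF_P16KO, library 23 was highest (0.10) and library 21 lowest (-0.36), and APPNLGF library 16 was at 0.24.

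Within genotypes, deviations of all 10 genes followed this value over the 23 libraries (10 relations, permutation within groups). The value was built from other genes under 2000 and above 5000 bases, so r is read against theirs. Over all genes used, the median r was -0.40 under 2000 bases (80.6% negative) and 0.40 above 5000 bases (74.1% positive). It was -0.10 from 2000 to 5000 bases, where Stmn2 lies. The permutation p given below is against an r of 0 and not against these medians. Pearson r was -0.91 for Stmn3 (Spearman -0.81), the value farthest from 0, and -0.65 for Stmn4 (Spearman -0.57), with adjusted permutation p of 6.67e-05 and 0.00483 for r and 2.0e-04 and 0.0151 for Spearman. It was 0.84 for Map2 (Spearman 0.83) and 0.84 for Map1b (Spearman 0.80), with adjusted permutation p of 6.67e-05 for each r, and 2.0e-04 and 2.67e-04 for Spearman. Without the 2 libraries farthest from the median, 21 and 23, r was -0.84 for Stmn3, -0.50 for Stmn4, 0.78 for Map2 and 0.83 for Map1b. Trends on length and GC content were then removed from every library, an alternative chosen after the data were seen. In the averaged P16 comparison 11.4% of all genes were then called, and of the 10 genes 4. They were Stmn3 (0.15, adjusted p = 0.0380), Tubb3 (0.20, adjusted p = 0.0267), Tuba1a (0.18, adjusted p = 0.0382) and Map2 (-0.33, adjusted p = 0.0371), all by edgeR. Tubb2a (0.10, adjusted p = 0.129) was no longer called, and 6 of the 10 values shrank by more than 1.5 times with their sign kept: Stmn2 to 0.05, Stmn3, Stmn4 to 0.03, Tubb2a, Mapt to -0.07 and Map1b to -0.14. Stmn1 changed sign, to -0.04. In the comparison that chose the genes the Stmn4 value was -0.37 after this step.

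**Figure D4:**
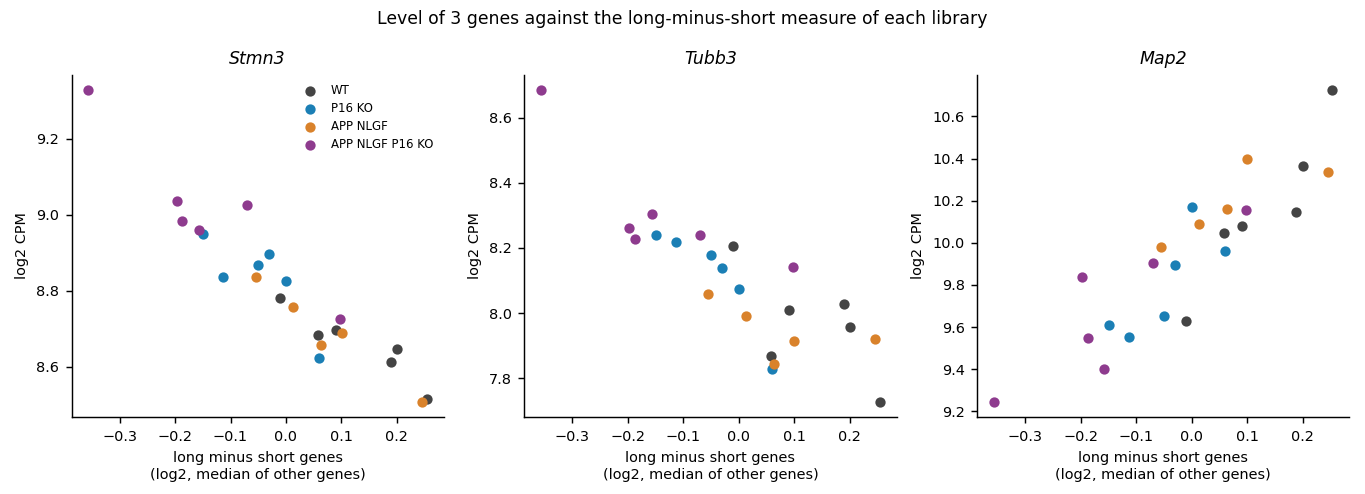
Level of Stmn3, Tubb3 and Map2 (vertical axes, log2 CPM) against the long-minus-short value of each library (horizontal axes, log2), with colours for the 4 genotypes. Stmn3 and Tubb3 fall and Map2 rises along the axis, from library 21 at -0.36 to library 5 at 0.25.

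The 10 genes also varied in 2 opposed sets among libraries of a genotype. Of 21 pairs of stathmin or tubulin genes all 21 had a positive Pearson r (0.08 to 0.85), and 16 had an adjusted permutation p under 0.05. All 3 pairs of MAP genes were positive (0.68 to 0.88) and past that threshold. All 21 pairs of a stathmin or tubulin gene with a MAP gene were negative (-0.77 to -0.18), with 16 past the threshold. The highest r was that of Mapt and Map1b (0.88, Spearman 0.86, 0.86 without the 2 farthest libraries, adjusted permutation p = 2.25e-04 for r and 4.5e-04 for Spearman, 45 pairs). Stmn4 and Tuba1a had r of 0.76 (Spearman 0.73, 0.64 without the 2 farthest libraries, adjusted permutation p = 6.75e-04 and 0.00184). These pairs share the libraries and the long-minus-short value, whose part in them was not tested.

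Over the 23 libraries, with group means removed, the genes whose deviations were most like those of Stmn4 among 13456 genes included Lgmn (r = 0.85), a lysosomal protease, Rtca (0.85), an RNA cyclase, Tmem248 (0.84) and Zfp275 (0.84). These values describe the likeness and carry no test. Without libraries 1 and 21, the farthest in Stmn4, r was 0.82 for Lgmn and 0.76 for Rtca. In the same order Tuba1a ranked 71 and Tubb3 192, whereas Stmn3 ranked 753, Stmn2 3079 and Stmn1 3381. The MAP genes stood near the other end, with Map2 at rank 13191.

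Beyond the 10 genes, lists of microtubule genes held 184 others, of which 179 were tested. In the averaged P16 comparison 39 of the 179 were called, 18 higher and 21 lower (21.8%, against 13.0% of all genes), with a median near 0. Counting the members, alpha-tubulins had 3 of 5 called and beta-tubulins 5 of 7, all higher. Besides the members these were Tuba1b (0.37), Tuba4a (0.18), Tubb4b (0.21), Tubb5 (0.19) and Tubb6 (0.42). Tubb6 was scarce, with a mean of 0.81 CPM over all libraries. Tubulin folding cofactors, listed together with chaperonin and prefoldin subunits, had 5 of 21 called, all higher, among them Tbcb (0.19), Arl2 (0.21), Pfdn1 (0.15) and Tbcc (0.14). In the list of the gamma-tubulin ring complex, which seeds microtubules, 1 of 18 was called, Mzt2 (0.25). That list also holds the Haus genes of the augmin complex.

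MAPs had 6 of 24 called, all lower, including Map7d2 (-0.21), Camsap1 (-0.20) and Camsap2 (-0.20), of which the last 2 guard minus ends. Plus-end proteins, listed together with Crmp1 and Dpysl genes, had 5 of 21 called, all lower, among them Clasp1 (-0.22), Nav3 (-0.33), Ckap5 (-0.19) and Clip1 (-0.39). Kinesins and dynein had 10 of 27 called, 7 lower and 3 higher, with Kif1b at -0.21 and Kif21a at -0.30, and the small dynein subunit Dynll1 at 0.23 and its partner Ndel1 at 0.15. Tubulin-modifying enzymes had 4 of 23 called, Tpgs1 (0.28) and Agbl4 (0.27) higher and Ttll5 (-0.22) and Ttll6 (-0.79) lower. Ttll6 was near the floor, with a mean of 0.41 CPM over all libraries. Kinases and phosphatases of tau and MAPs had 4 of 25, with Cdk5 (0.17) and Ppp2r1a (0.14) higher and Ttbk2 (-0.20) and Camk4 (-0.20) lower. Severing enzymes had 0 of 9 called by edgeR, 0 at an unadjusted p under 0.05 and 0 by DESeq2. Neurofilaments had 0 of 5 called by edgeR, 1 at an unadjusted p under 0.05 and 0 by DESeq2, with Nefl at -0.05 and Ina at -0.10.

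These counts moved with single libraries too. Of the 179 listed genes 17 were called without library 21 (13 higher, 4 lower) and 11 without library 16 (8 higher, 3 lower). Without library 1 there were 61 (28 higher, 33 lower) and without library 23 there were 79 (36 higher, 43 lower). Calls over all genes moved as well, with shares in the same order of 7.29%, 3.88%, 18.9% and 26.5%. The plus-end proteins had 0 of 21 called by edgeR without library 21 and likewise 0 without library 16. The MAPs had 2 and 1 of 24 in the same order, kinesins and dynein 3 and 2 of 27, and the folding cofactors 4 and 1 of 21. With length and GC trends removed 38 were called, 25 higher and 13 lower, of which 20 were among the first 39. Over all genes 11.4% were called in that setting. The plus-end proteins then had 2 of 21 called, 1 in each direction, and the MAPs 4 of 24, with 3 lower, while alpha-tubulins had 3 of 5 and beta-tubulins had 3 of 7, all higher. The folding cofactors had 3 of 21, with 2 higher and 1 lower and 1 of the first 5 among them, and the kinases and phosphatases had 8 of 25, with 7 higher. The gamma-tubulin ring complex had 4 of 18, with 3 higher. In each of the other comparisons 0 of the 179 were called by edgeR. At an unadjusted p under 0.05 there were 34 in P16KO minus WT, against 15.8% of all genes, and 70 in APPNLGF_P16KO minus APPNLGF, against 23.5%. DESeq2 called 7 of them in the former, against 2.42% of all genes, and 6 in the latter, against 2.23%. DESeq2 called 0 in the other three, with 8 of the 179 at an unadjusted p under 0.05 in APPNLGF minus WT (8.54% of all genes), 13 in APPNLGF_P16KO minus P16KO (7.89%) and 13 in the interaction (5.26%).

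**Figure D5:**
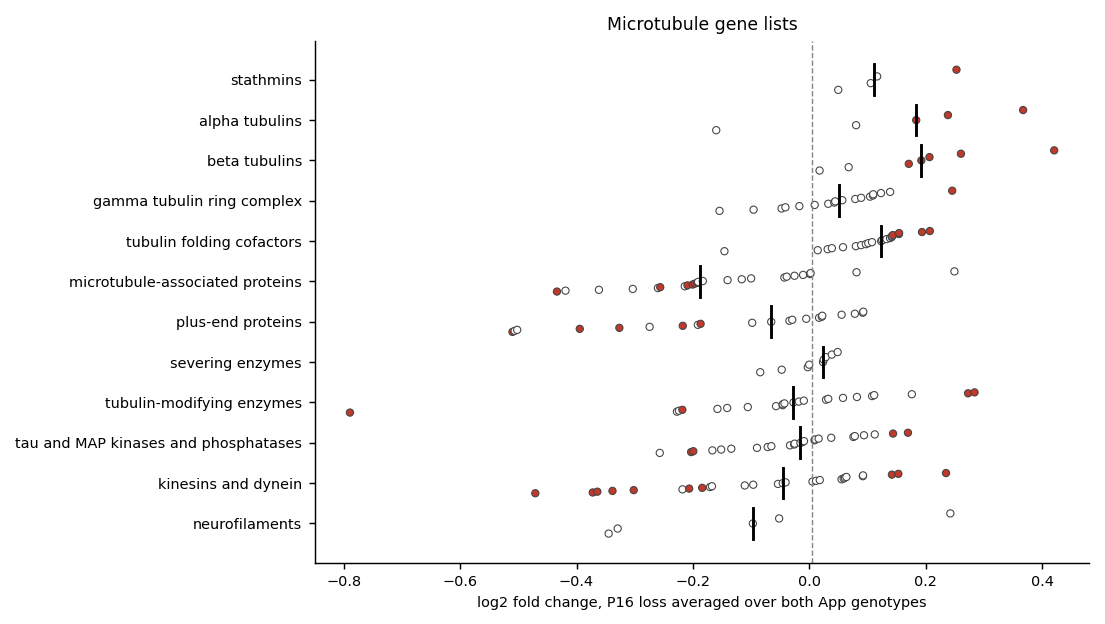
Log2 fold change for P16 loss averaged over both App genotypes (horizontal axis) of each tested gene in 12 microtubule lists (vertical axis), with red points for called genes, open points for the rest, a black bar for each list's median and a dashed line for the median of all genes. Medians of tubulins are at 0.18 and 0.19, that of the MAPs at -0.19.

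Counts of cell type markers called with averaged P16 loss stand against all genes, of which edgeR called 13.0% and DESeq2 17%. At an unadjusted p under 0.05 in edgeR stood 31% of all genes. Of 12 neuron markers 4 were called higher (Eno2 0.13, Slc17a7 0.15, Thy1 0.14, Uchl1 0.21). Fitted values were positive for only 7 of the 12, with a median of 0.03. The summed level of the 12 was 11412 to 12331 CPM in WT and 11699 to 12555 in P16KO. It was 11157 to 11947 CPM in APPNLGF, and 11811 to 12839 where P16 was lost as well. Immature neuron markers had 0 of 9 called by edgeR, 2 at an unadjusted p under 0.05 and 0 by DESeq2, with sums of 267 to 314 CPM in WT and 276 to 315 in P16KO, then 263 to 316 in APPNLGF, and 265 to 283 where P16 was lost as well. Of the glial and vascular lists, 3 of 8 astrocyte markers (Gfap and Aldoc higher, Slc1a2 lower), 3 of 8 microglial (Tmem119, Aif1 and C1qa higher), 1 of 8 of oligodendrocyte precursors (Olig1 higher) and 1 of 8 vascular (Flt1 lower) were called. A count of 1 of 8 is near the share of all genes. Oligodendrocyte markers had 0 of 10 called by edgeR, 3 at an unadjusted p under 0.05 and 0 by DESeq2, with sums of 5053 to 6642 CPM in WT and 5457 to 8781 in APPNLGF_P16KO, highest in library 21. Choroid plexus markers had 0 of 7 called by edgeR, 0 at an unadjusted p under 0.05 and 0 by DESeq2. Their sum ran from 126 to 3249 CPM in WT and from 603 to 5767 in P16KO, highest in P16KO library 12. In each group 0 of the markers were at 0. The part of cell composition in the tubulin and MAP values was not tested.

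For the 5 genes called with P16 loss, RefSeq promoters (GRCm38.p6) are shown, from 250 bases before to 50 after the gene's start in RefSeq. That start lies 129 bases downstream of the start in the counted annotation for Tubb3, 202 for Tuba1a and 56 for Map2, and within 1 base of it for Stmn3 and Tubb2a. They lie at chr2:181314451-181314750 (minus strand) for Stmn3, chr8:123411303-123411602 (plus strand) for Tubb3, chr13:34077959-34078258 (minus strand) for Tubb2a, chr15:98953452-98953751 (minus strand) for Tuba1a and chr1:66175079-66175378 (plus strand) for Map2. Capitals mark 4 motifs searched on both strands, which do not overlap here. They were the TATA box letters TATAAA, the promoter box named by its letters CCAAT, the GC box letters GGGCGG, and the letters CAGCACC, a stretch of the element bound by the neuronal repressor REST.
Stmn3: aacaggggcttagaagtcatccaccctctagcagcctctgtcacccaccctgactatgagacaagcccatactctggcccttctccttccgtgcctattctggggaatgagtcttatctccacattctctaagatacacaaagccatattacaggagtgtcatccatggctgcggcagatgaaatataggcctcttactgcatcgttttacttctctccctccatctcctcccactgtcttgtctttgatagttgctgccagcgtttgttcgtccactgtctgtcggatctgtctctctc
Tubb3: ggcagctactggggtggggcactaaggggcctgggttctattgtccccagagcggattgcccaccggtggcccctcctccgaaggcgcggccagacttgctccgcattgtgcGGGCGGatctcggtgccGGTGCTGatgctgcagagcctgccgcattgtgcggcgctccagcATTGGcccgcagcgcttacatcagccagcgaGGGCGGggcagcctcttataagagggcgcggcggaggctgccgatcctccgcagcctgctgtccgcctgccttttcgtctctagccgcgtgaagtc
Tubb2a: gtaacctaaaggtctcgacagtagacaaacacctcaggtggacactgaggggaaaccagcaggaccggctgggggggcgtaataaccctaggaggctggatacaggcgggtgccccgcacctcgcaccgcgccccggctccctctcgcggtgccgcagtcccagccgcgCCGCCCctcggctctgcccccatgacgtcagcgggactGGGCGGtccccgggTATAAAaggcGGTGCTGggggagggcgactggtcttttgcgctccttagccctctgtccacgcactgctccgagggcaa
Tuba1a: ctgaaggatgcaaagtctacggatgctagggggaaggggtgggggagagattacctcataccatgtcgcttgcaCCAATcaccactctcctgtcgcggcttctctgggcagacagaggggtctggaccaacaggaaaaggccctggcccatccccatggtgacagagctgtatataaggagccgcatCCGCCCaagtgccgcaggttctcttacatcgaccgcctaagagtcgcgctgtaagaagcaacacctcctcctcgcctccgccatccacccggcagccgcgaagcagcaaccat
Map2: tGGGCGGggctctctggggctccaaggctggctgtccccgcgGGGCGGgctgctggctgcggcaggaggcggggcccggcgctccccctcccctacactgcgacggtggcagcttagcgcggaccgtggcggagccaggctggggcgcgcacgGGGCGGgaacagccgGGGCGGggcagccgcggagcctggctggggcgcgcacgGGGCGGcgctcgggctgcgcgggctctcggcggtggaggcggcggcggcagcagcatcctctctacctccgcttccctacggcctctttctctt
Among 32851 promoters of this length, TATAAA occurred in 13.6%, CCAAT in 37.4%, GGGCGG in 35.7% and CAGCACC in 7.14%. The Tubb3 window held 1 CCAAT, 2 GGGCGG and 1 CAGCACC, and that of Tubb2a 1 TATAAA, 2 GGGCGG and 1 CAGCACC. Tuba1a held 1 CCAAT and 1 GGGCGG, Map2 held 5 GGGCGG and Stmn3 held 0 of the 4. A match is a description of letters and not of a bound site. Of the 10 genes, 6 had a promoter in the table.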

How the data were processed

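The deposited values were raw counts per gene in 23 libraries, whole numbers with no normalisation. Per the labels' protocols, stranded poly-A libraries were read as single ends. The submitters' processing notes name cutadapt 4.2, Bowtie2 2.3.5, STAR 2.7.10b and DESeq2 1.45.3, and the builds GRCm38 and mm39. Coordinates of 36795 of 37060 genes shared with GENCODE M21 (GRCm38) were identical, those of all 10 genes among them. How reads that fit several genes were counted is not given in the sources used here.

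Counts were tested with edgeR 4.0.16 in R 4.3.3: TMM scaling, filterByExpr (minimum count 10, 19423 genes kept), robust quasi-likelihood F test, 1 model of 4 group means, two-sided, Benjamini-Hochberg over all genes tested, threshold 0.05. Every adjusted p is from this test unless DESeq2 (1.42.0) or a permutation is named. Permutations within groups for correlations numbered 1e+05. Sample groups came from the labels, whose numbers 1 to 23 are the library numbers. The procedure was tested on simulated data. Sequences were compared with Biopython 1.88.

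The members and the lists of genes were chosen with earlier results of these data known. Of each list, up to 4 called genes with the smallest p were named, or the 2 most abundant where none was called; Tubb2b was added after its values were seen. Alternatives were DESeq2, RLE factors, 2 other count filters, no robust step, compared groups alone, sex (from Xist), 1 surrogate variable (sva 3.50.0), each library left out, the library past a distance limit left out, and removal of length and GC trends. Counting error is small at these depths, and the labels name no molecular identifiers, so PCR copies were not separated. Some genes and sequences are not reported here.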

Additional observations from a re-analysis of the deposited data

Results flagged for a closer look

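In 4 of 40 sets of libraries (10 genes in 4 genotypes) the highest library stood apart from the others by Dixon's test, where chance flags about 1 in 20. Tubb3 was at 411 CPM in APPNLGF_P16KO library 21, with the next at 316. Tubb2a was at 372 CPM in APPNLGF library 13, with the next at 331. Tuba1a was at 248 CPM in WT library 1, with the next at 207. Map1b was at 795 CPM in APPNLGF_P16KO library 23, with the next at 501. Libraries 21 and 23 were also the lowest and highest of their group in the long-minus-short value.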

How the results depend on the processing

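The count of the 10 genes called with P16 loss on average was 5, and it was 8 with sex as a term (3044 of all genes called, against 2522) and 8 with 1 surrogate variable (2949). It ran from 2 to 9 when each library was left out (2 without library 16, 8 without library 1, 9 without library 23). Tubb2a, Tuba1a and Map2 lost their calls without library 16, Map2 also without a count filter (adjusted p = 0.0557, edgeR). Stmn1, never called, changed sign to -0.042 with length and GC trends removed and to -0.0094 without library 8 (up to 0.083 without library 7). Over all genes, that comparison had 1364 calls without a count filter, 1410 without library 21 and 762 to 5117 with each library left out, moving by over 1.5 times for libraries 2, 4, 5, 9, 12, 16, 17, 20, 21 and 23. The higher share of its calls was 59.0%, and 69.2% with trends removed. P16KO minus WT had 60 calls, 470 with DESeq2, 356 with the compared groups alone, 189 without library 21, 27 with trends removed and 7 to 239 with each library left out. APPNLGF_P16KO minus APPNLGF had 6 calls, 434 with DESeq2, 17 without a filter, 0 with the groups alone and 2 to 4156 with each library left out. APPNLGF_P16KO minus P16KO had 48 calls, 101 with DESeq2, 19 with the groups alone, 29 without library 21 and 29 to 61 with each library left out. APPNLGF minus WT had 153 with DESeq2 against 62, and the interaction 1 against 0. The causes were not tested.

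In APPNLGF_P16KO minus P16KO 0 of the 10 genes were called by edgeR or DESeq2 in any alternative, with Stmn4 between -0.12 and -0.04. No paired analysis was possible because the labels used here name no pairs of libraries. Limits are the 5 to 6 libraries a group and reads of 50 bases that near copies of Tuba1a, Tubb2a and Stmn1 share.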
